A study of Mus musculus with 16 samples.

Results

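Hsd11b1, Hsd11b2, Hsd17b2, Hsd17b4, Hsd17b10, Hsd17b11, Srd5a1 and Srd5a3 encode dehydrogenases and reductases named for their action on steroids. These 8 genes were taken by name, through their Ensembl identifiers, from a table of 23306 genes, and all 8 were found and passed the filter on low values. RNA had been sequenced from mouse endometrial epithelial organoids, small hollow cultures grown from the epithelium that lines the uterus, in 16 libraries. Libraries M1 to M4 were control organoids (Tgfbr2 FF, floxed Tgfbr2 without Cre) under vehicle, and M9 to M12 were control organoids under estradiol (E2) and the synthetic progestin medroxyprogesterone acetate (MPA). Libraries M5 to M8 were Tgfbr2 cKO organoids (Tgfbr2 PRcre+) under vehicle, and M13 to M16 were Tgfbr2 cKO organoids under E2/MPA. All organoids grew for 2 days and were then treated for 6 days. Control treatment was vehicle throughout, while E2/MPA organoids received 10 nM E2 for 2 days followed by E2 with 1 µM MPA for 4 days. PR-Cre acts in cells that express, or have expressed, the progesterone receptor, and both genotypes carry the floxed allele. The labels give neither the animals' age nor the number of animals behind each group of 4 libraries. Every p-value therefore reflects only how far these samples differ from each other, which may be technical variation.

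Enzymes of this kind set how much active hormone a cell sees, because they interconvert active steroids and forms that bind their receptors poorly. Hsd11b1 is a reductase of the endoplasmic reticulum that regenerates active glucocorticoid, and Hsd11b2 is the opposing dehydrogenase, known for shielding the mineralocorticoid receptor from glucocorticoid. Hsd17b2 oxidises estradiol to the weaker estrone, a step known from the human endometrium, where progestins raise it. Srd5a1 reduces progesterone and testosterone, the latter to dihydrotestosterone. Several genes carry the family name but work mainly on other substrates. Hsd17b4 is the bifunctional enzyme of peroxisomal fatty acid oxidation, Hsd17b10 is a mitochondrial enzyme of isoleucine breakdown and a subunit of mitochondrial RNase P, Hsd17b11 resides on lipid droplets, and Srd5a3 acts in the synthesis of dolichol, the lipid carrier of N-glycosylation.

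Promoter windows of 250 bases before the RefSeq start are shown for Hsd11b1, Hsd17b11 and Srd5a1, the members whose differences between libraries or genotypes are described most fully here. They come from RefSeq (GRCm38.p6), another build than the GRCm39 named for the deposited table, and run 5′ to 3′ on the gene's strand. Capitals mark CCAAT boxes and GC boxes (GGGCGG, or CCGCCC on the other strand).
Hsd11b1 (chr1:193242361-193242610, minus strand): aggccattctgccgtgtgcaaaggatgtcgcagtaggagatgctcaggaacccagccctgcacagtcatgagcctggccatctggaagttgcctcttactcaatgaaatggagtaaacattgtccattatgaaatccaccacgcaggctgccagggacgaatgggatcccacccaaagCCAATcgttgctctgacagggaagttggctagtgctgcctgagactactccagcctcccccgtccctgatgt
Hsd17b11 (chr5:104021797-104022046, minus strand): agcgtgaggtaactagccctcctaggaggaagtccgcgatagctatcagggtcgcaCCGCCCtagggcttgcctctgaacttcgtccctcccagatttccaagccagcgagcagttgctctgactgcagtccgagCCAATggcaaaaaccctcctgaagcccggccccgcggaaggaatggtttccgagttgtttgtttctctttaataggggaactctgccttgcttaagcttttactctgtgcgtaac
Srd5a1 (chr13:69611464-69611713, minus strand): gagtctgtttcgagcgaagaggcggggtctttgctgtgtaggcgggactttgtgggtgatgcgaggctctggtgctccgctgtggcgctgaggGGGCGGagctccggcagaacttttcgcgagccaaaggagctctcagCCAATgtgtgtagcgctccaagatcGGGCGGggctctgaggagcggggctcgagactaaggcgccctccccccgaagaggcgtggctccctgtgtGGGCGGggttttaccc

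RefSeq windows were matched for 5 of the 8 genes, and the 2 not shown are those of Hsd17b10 and Srd5a3. The Srd5a1 window was the richest in G and C of the 5, at 64.8% against a median of 52.4% over 32851 windows. It held 3 GC boxes, starting 157, 86 and 16 bases before the start, and a CCAAT box 111 bases before it. The Hsd11b1 window had a CCAAT box 72 bases before the start and no GC box. The Hsd17b11 window had a CCAAT box at 115 and a GC box at 194 bases before the start. CCAAT was present, on either strand, in 33.8% of all windows and GGGCGG in 32.7%. None of the 5 windows held, on either strand, the progesterone and glucocorticoid receptor core ACANNNTGT (in 5.84% of all windows), its hexamer TGTTCT (16.1%, and able to overlap the core), the estrogen receptor hexamer AGGTCA (14%), the SMAD palindrome GTCTAGAC (0.167%) or TATAAA (12.4%). These are letter matches in 1 short window each and say nothing of factor binding.

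Depth was 14372111 to 20016836 reads per library, and the lowest count of any of the 8 genes in a library was 12 reads (Hsd11b2, M15). Levels are the deposited normalized read counts, and differences are on the log2(value + 1) scale, which understates changes of low genes. Tgfbr2, the gene targeted in the cKO, was read in every library. Vehicle libraries held 4852 to 8054 (control) and 3520 to 5439 (cKO), and E2/MPA libraries 4103 to 7794 (control) and 3568 to 5526 (cKO). Neither genotype difference of Tgfbr2 passed the test (log2 -0.46, adjusted p = 0.833, and -0.28, adjusted p = 0.69, limma), and whole-gene counts do not show which exons remain. All 10 epithelial markers were read in every group, with summed levels of 116096 to 189074. The 12 stromal markers (such as Col1a1, Col3a1, Pdgfra and Dcn) were uneven. Their mean log2 level was 7.88 in M1, 10.06 in M4, 9.08 in M8, 8.81 in M9, 10.29 in M12 and 9.90 in M16, and 4.33 to 6.47 in the 10 other libraries. Summed over the list, stromal markers ran from 831 to 53666 (control) and 1641 to 22011 (cKO) without hormone. With E2/MPA they ran from 1709 to 46955 (control) and 2323 to 39888 (cKO). Macrophage and leukocyte markers were highest in M4 and M12 (sums of 15378 and 20652, against 1935 to 4839 elsewhere), and endothelial markers summed to 26.3 to 545. In these bulk libraries fewer cells of a type and less RNA per cell cannot be told apart.

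Per kilobase of exon, Hsd17b11 was the most abundant of the 8 genes, with a mean of 2053 normalized reads per kb over the 16 libraries. Srd5a1 followed at 1289, Hsd17b10 at 885 and Hsd17b4 at 454 per kb. The other levels per kb were 164 for Hsd17b2, 77.5 for Hsd11b1, 55.6 for Srd5a3 and 38.5 for Hsd11b2. The lipid droplet enzyme and the steroid 5-alpha-reductase thus led, and the glucocorticoid pair and the dolichol enzyme were lowest. Neighbours in this order overlapped in their ranges except Hsd17b4 (380.3 to 525 per kb), which lay apart from Hsd17b10 (753 to 1109) above and Hsd17b2 (118 to 233) below in all 16 libraries. Srd5a1 exceeded Srd5a3 per length in every library, by 16.2 to 32.6 times. Srd5a1 shares 476 exon bases (16.4% of its exon length) with the predicted gene Gm17108, so its reads there are uncertain, and the 7 other genes share no exon base with another gene.

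**Figure D1:**
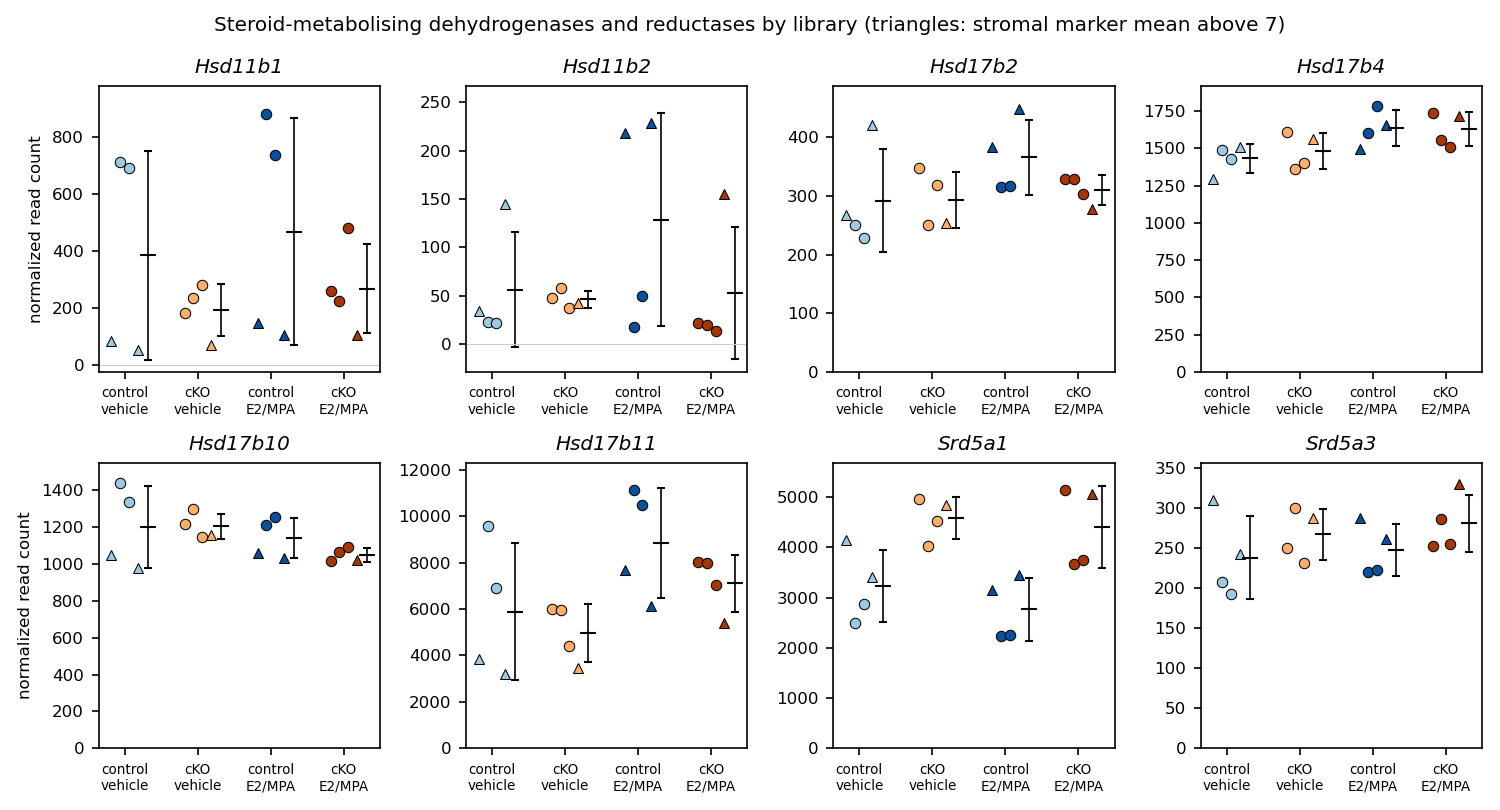
Normalized read count (vertical axis, linear) of each of the 8 genes in the 16 libraries, by group, with the mean and SD of the 4 libraries to the right of the points and triangles for libraries with a mean log2 stromal marker level above 7. The coefficient of variation within a group is 47.5 to 94.8% for Hsd11b1 and 6.86 to 8.10% for Hsd17b4, and the Srd5a1 libraries of cKO organoids under E2/MPA all lie above those of control organoids under E2/MPA.

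Spread between libraries of a group differed greatly among the 8 genes. The residual SD on the log2 scale was 1.40 for Hsd11b1 and 1.33 for Hsd11b2, larger than that of 96.2% and 95.9% of the 16509 tested genes. It was 0.48 for Hsd17b11, 0.27 for both Srd5a1 and Hsd17b2, 0.22 for Srd5a3, 0.16 for Hsd17b10 and 0.11 for Hsd17b4, against a median of 0.26 over all tested genes. The glucocorticoid-converting pair was therefore measured with the widest intervals, and the peroxisomal and mitochondrial enzymes with the narrowest.

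No member passed an adjusted p of 0.05 in any comparison of the limma fit without pairing. Blocking on pairs of libraries whose numbers differ by 8, a pairing seen in the data, called 3 members (Hsd17b2, Hsd17b4 and Hsd17b11) and 27.1% of all genes for hormone in control. Without pairing, 0 of 8 were called for E2/MPA against vehicle in control organoids, where 8.9% of all tested genes were called, and 0 of 8 in cKO organoids, where 4.19% were. For cKO against control, 0 of 8 were called under vehicle (0% of all tested genes) and 0 of 8 under E2/MPA (0.00606%, which is 1 gene). The interaction of hormone and genotype gave 0 of 8 (0% of all genes, adjusted p = 1 for each member). At an unadjusted p under 0.05 there were 2 members in the control hormone comparison (Hsd17b4 and Hsd17b11), where 23.9% of all tested genes were under it, and 0 in the cKO hormone comparison (18.6%). Srd5a1 was the 1 member in each genotype comparison (5.96% of all genes under vehicle and 10.9% under E2/MPA), and the interaction had 0 (1.87%). The 2 of 8 for hormone in control is close to the share of all genes. edgeR and limma voom on the recovered reads called 0 members in each of the 5 comparisons, and DESeq2 called 1, Srd5a1 for genotype under E2/MPA. The median difference of the 8 genes was 0.27 in control and 0.081 in cKO organoids for hormone, 0.042 and -0.17 for genotype under vehicle and E2/MPA, and over all tested genes it lay between -0.0091 and 0.0010 in each of these. The hormone and genotype comparisons share libraries, so their values are given side by side only.

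**Figure D2:**
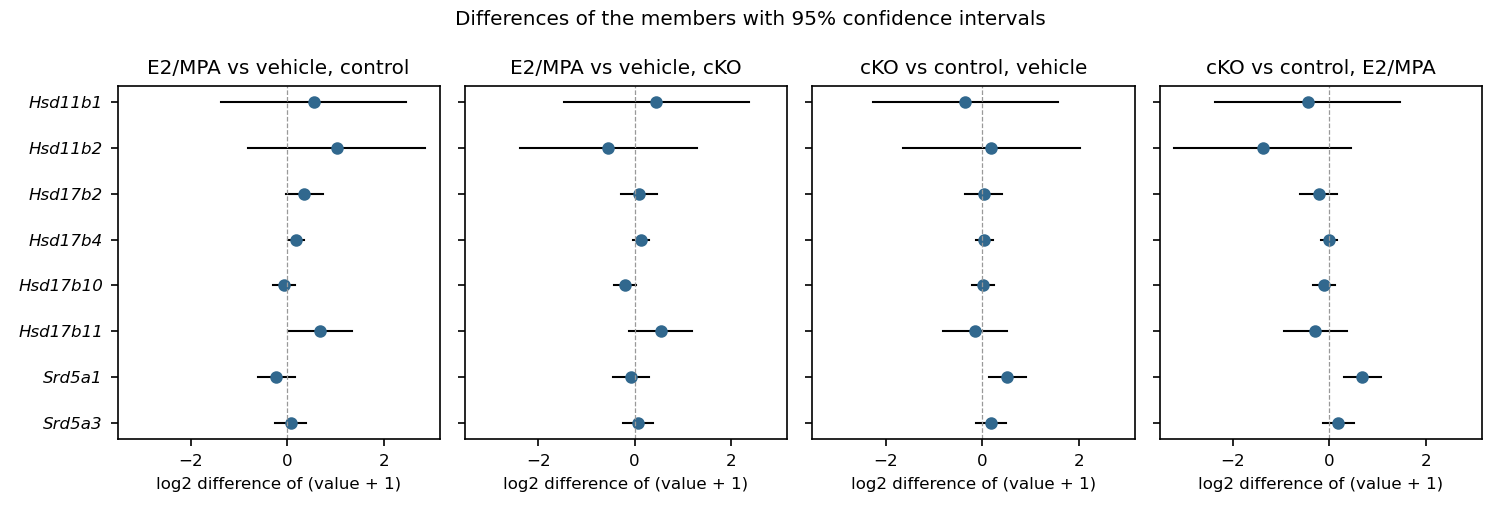
Difference on the log2(value + 1) scale (horizontal axis) of each of the 8 genes in 4 comparisons, with the 95% confidence interval of the limma fit as a line. The interval of Srd5a1 lies above 0 in both genotype comparisons, those of Hsd17b4 and Hsd17b11 lie above 0 in the control hormone comparison, and those of Hsd11b1 and Hsd11b2 are the widest.

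Hsd11b1 (ENSMUSG00000016194), the glucocorticoid-regenerating reductase, split the control libraries into high and low ones. In control organoids it was 86.0, 713, 693 and 52.8 under vehicle (M1 to M4) against 149.9, 882, 739 and 107 under E2/MPA (M9 to M12). In cKO organoids it was 185, 236, 283 and 69.4 under vehicle (M5 to M8) against 259, 225, 481 and 106 under E2/MPA (M13 to M16). M2, M3, M10 and M11 were high, and in every group the library with the most stromal marker RNA was the lowest. Group means were 386 ± 366 in control vehicle, 469 ± 399 in control E2/MPA, 194 ± 91.9 in cKO vehicle and 268 ± 156 in cKO E2/MPA (SD, n = 4 each), and all ranges overlapped. The hormone difference was 0.55 in control (95% interval -1.37 to 2.46, adjusted p = 0.764, limma) and 0.45 in cKO (-1.47 to 2.36, adjusted p = 0.848). Without M4 the control value was -0.13, and in cKO the sign held whichever library was left out. The genotype difference was -0.35 under vehicle (adjusted p = 0.979) and -0.45 under E2/MPA (adjusted p = 0.915), with intervals of -2.26 to 1.57 and -2.36 to 1.47. Its sign turned under vehicle without M2 (0.22), M3 (0.21) or M8 (0.082), and under E2/MPA without M10 (0.037).

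Hsd11b2 (ENSMUSG00000031891), the glucocorticoid-inactivating dehydrogenase, was low in most libraries and high in a few. Control libraries read 34.2, 22.6, 22.1 and 145 under vehicle against 219, 18, 49.3 and 229 under E2/MPA. Its cKO levels were 47.1, 58.0, 37.3 and 42.7 under vehicle against 21.4, 19.4, 13.7 and 155 under E2/MPA. The 4 libraries above 100 were M4, M9, M12 and M16, which all have high stromal marker levels, while M1 and M8, also high in stroma, stayed at 34.2 and 42.7. The hormone difference was 1.03 in control (interval -0.80 to 2.86, adjusted p = 0.509, limma) and -0.55 in cKO (-2.38 to 1.28, adjusted p = 0.8). In cKO organoids 3 of 4 E2/MPA libraries lay below all 4 vehicle libraries and M16 lay above them. The count-based tools, edgeR and DESeq2, gave this cKO difference the opposite sign (0.17 each). Leaving out 1 library moved the control value between 0.54 (without M12) and 1.74 (without M10), and it was 1.64 without M4 and 0.56 without M9. In cKO it moved between -1.31 (without M16) and -0.17 (without M15), with -0.37 without M13 and -0.33 without M14. Under E2/MPA the genotype difference was -1.38 (adjusted p = 0.6), and -2.14 to -0.89 with 1 library left out (lowest without M16 or M10, highest without M9 or M12). Under vehicle it was 0.19 (adjusted p = 0.988). This vehicle sign turned with edgeR (-0.28), with DESeq2 (-0.27) and without M2 (-0.074) or M3 (-0.084), and without M4 the value was 0.80. The ranges overlapped in all 4 comparisons.

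Set per exon length within a library, the reductase and the dehydrogenase traded places. Hsd11b1 exceeded Hsd11b2 by 21.2 times in M10, 15.2 times in M15, 13.6 times in M3 and 13.7 times in M2. Hsd11b2 exceeded Hsd11b1 by 6.34 times in M4, 4.95 times in M12, 3.37 times in M9, 3.36 times in M16 and 1.42 times in M8. Each library in which Hsd11b2 led had a mean log2 stromal level above 7, and M1, also above 7, was close to even at 1.09.

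Hsd17b11 (ENSMUSG00000029311), the lipid droplet enzyme, was higher on average with E2/MPA in both genotypes, although neither difference passed the test. Its control levels were 3852, 9591, 6889 and 3198 under vehicle against 7665, 11114, 10489 and 6111 under E2/MPA. The cKO libraries read 6007, 5959.6, 4404 and 3473 under vehicle against 8048, 7975, 7042 and 5406 under E2/MPA. Ranges overlapped in both genotypes, and the library richest in stroma was the lowest of each group, 4 of 4. Means were 5883 ± 2949 and 8845 ± 2360.3 in control and 4961 ± 1240.2 and 7118 ± 1229.7 in cKO. The difference was 0.69 in control (1.61-fold, interval 1.02 to 2.54, adjusted p = 0.191, limma) and 0.54 in cKO (1.45-fold, 0.920 to 2.30, adjusted p = 0.38). Leaving out M2, the highest vehicle library, gave 0.97 with an adjusted p of 0.0422 in control (limma, 10.7% of genes called), and the pairs 8 numbers apart as a block gave an adjusted p of 0.0154 there. Hsd17b11 was -0.14 in cKO against control under vehicle and -0.29 under E2/MPA (adjusted p = 0.975 and 0.802). The vehicle sign turned without M2 (0.14) or M8 (0.016).

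Hsd17b2 (ENSMUSG00000031844), the estradiol-oxidising enzyme, differed little between groups. Control libraries read 268, 249, 227 and 421 under vehicle against 383, 315, 316 and 448 under E2/MPA. Its cKO levels were 348, 251, 318 and 253 under vehicle against 329.5, 329, 303 and 277 under E2/MPA. Apart from M4, each control vehicle library was below each control E2/MPA library, whereas the cKO groups overlapped broadly. The hormone difference was 0.35 in control (1.28-fold, interval 0.982 to 1.66, adjusted p = 0.244, limma) and 0.093 in cKO (1.07-fold, 0.820 to 1.39, adjusted p = 0.839). M4 had the second highest stromal level of all libraries, and without it the control difference was 0.54 (adjusted p = 0.0377, 7.08% of genes called). With the pairs 8 numbers apart as a block its adjusted p was 0.0374. Between genotypes Hsd17b2 was 0.035 in cKO against control under vehicle and -0.23 under E2/MPA (adjusted p = 0.989 and 0.707), and the vehicle sign turned without M2, M3, M5 or M7 (-0.069 to -0.010). The hormone effects in cKO and control differed by -0.26 (interval -0.80 to 0.28, adjusted p = 1).

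Hsd17b4 (ENSMUSG00000024507), the peroxisomal enzyme, and Hsd17b10 (ENSMUSG00000025260), the mitochondrial one, had the smallest residual SDs of the 8. Hsd17b4 in control organoids was 1295, 1492, 1431 and 1512 under vehicle against 1498, 1605, 1786 and 1658 under E2/MPA. In cKO organoids it was 1609, 1363, 1400.4 and 1563 under vehicle against 1739, 1557, 1507 and 1715 under E2/MPA. The highest of its 16 values was only 1.38 times the lowest. The hormone difference of Hsd17b4 was 0.19 in control (1.14-fold, interval 1.02 to 1.28, adjusted p = 0.146, limma) and 0.14 in cKO (1.10-fold, 0.979 to 1.23, adjusted p = 0.383), with overlap in both. With the pairs 8 numbers apart as a block the control difference had an adjusted p of 0.0138. Its genotype differences were 0.050 under vehicle (interval -0.12 to 0.22) and -0.0062 under E2/MPA (-0.17 to 0.16), and the latter had the opposite sign without M11, M12, M14 or M15 (0.0011 to 0.037).

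Hsd17b10 in control organoids was 1051, 1439, 1338 and 977 under vehicle against 1059.7, 1209, 1253 and 1032 under E2/MPA. In cKO organoids it was 1218, 1296, 1149 and 1158 under vehicle against 1014, 1067, 1094 and 1021 under E2/MPA. All 4 cKO E2/MPA libraries were below all 4 cKO vehicle libraries, a separation shown by 13.8% of all tested genes in that comparison. The cKO difference was -0.20 (0.871-fold, interval 0.742 to 1.02, adjusted p = 0.353, limma). In control organoids it was -0.064 (interval -0.30 to 0.17, adjusted p = 0.774), and without M2 it was 0.029. The genotype differences of Hsd17b10 were 0.022 and -0.11 under vehicle and E2/MPA (adjusted p = 0.989 and 0.772), and the vehicle sign turned without M1, M4 or M6 (-0.071 to -0.014).

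Srd5a1 (ENSMUSG00000021594), the steroid 5-alpha-reductase, had the largest genotype difference relative to its spread. Under vehicle it was 4151, 2498, 2879 and 3413 in control and 4961, 4030.2, 4532 and 4849.6 in cKO organoids. Under E2/MPA it was 3146, 2226, 2249 and 3445 in control and 5149, 3659.7, 3748 and 5058 in cKO organoids. Under E2/MPA every cKO library lay above every control library, which 6.17% of all tested genes showed in either direction, and under vehicle only the pair M1 and M6 overlapped. Under vehicle the means were 3235 ± 716 in control and 4593 ± 417 in cKO, and with E2/MPA they were 2766 ± 623 and 4404 ± 809.8 (SD, n = 4). The cKO level was 1.44-fold that of control under vehicle (interval 1.11 to 1.88, log2 0.53, SE 0.18) and 1.60-fold under E2/MPA (1.23 to 2.08, log2 0.68, SE 0.18). Neither passed after adjustment over all genes (limma adjusted p = 0.801 and 0.188).

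Under E2/MPA other settings did call Srd5a1. DESeq2 on the recovered reads gave 0.66 (adjusted p = 0.036, with 1.12% of genes called), and limma with library weights gave 0.78 (adjusted p = 0.0232, 3.62% called). The difference stayed above 0 in all 34 alternatives, at 0.58 to 0.89 under E2/MPA and 0.41 to 0.74 under vehicle, and the adjusted p ran from 0.00421 to 0.553 and from 0.018 to 1. The hormone difference of Srd5a1 was -0.23 in control (interval -0.61 to 0.15, adjusted p = 0.477, limma) and -0.075 in cKO (-0.46 to 0.31, adjusted p = 0.877), and 0.0081 in cKO without M14. The genotype differences under the 2 treatments differed by 0.15 (interval -0.39 to 0.69, adjusted p = 1).

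Srd5a3 (ENSMUSG00000029233), the dolichol pathway enzyme, did not separate the groups. Its control levels were 309, 208, 192 and 242 under vehicle against 287, 220.0, 222 and 261 under E2/MPA. The cKO libraries read 250.2, 299.9, 232 and 287 under vehicle against 252, 285, 255 and 329 under E2/MPA. The hormone difference was 0.072 in control and 0.069 in cKO (intervals -0.25 to 0.39 and -0.25 to 0.39, adjusted p = 0.817 and 0.86, limma). It turned to -0.021 in control without M3, to -0.0021 without M9, and to -0.01 in cKO without M16. The cKO difference from control was 0.18 under both treatments (-0.13 to 0.50 and -0.14 to 0.50, adjusted p = 0.906 and 0.724).

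Part of the spread of these genes moved with stromal marker RNA. Over the 10 libraries with a mean log2 stromal level of 6.47 or less, Hsd11b1 was 713 and 693 in control vehicle against 185, 236 and 283 in cKO vehicle. It was 882 and 739 in control E2/MPA against 259, 225 and 481 in cKO E2/MPA. In these libraries each control value of Hsd11b1 was above each cKO value of the same treatment. With 2 control and 3 cKO libraries per treatment such separation is easily reached, and its share of all genes was not counted. Leaving out the 6 other libraries is an alternative chosen after the data were seen, and it keeps 2 control and 3 cKO libraries per treatment. Those kept are M2, M3, M5, M6 and M7 under vehicle and the libraries 8 numbers apart from them under E2/MPA. This fit does not pair them, so the 2 treatments may not give independent genotype differences. Hsd11b1 was then lower in cKO by a log2 difference of -1.60 under vehicle (adjusted p = 0.0117, limma, 3.59% of genes called) and -1.41 under E2/MPA (adjusted p = 0.0108, 8.44% called). Srd5a1 was higher in cKO by 0.74 (adjusted p = 0.018) and 0.89 (adjusted p = 0.00421). In cKO organoids Hsd11b2 was lower under E2/MPA than under vehicle by a log2 difference of -1.34 (adjusted p = 0.0302) and Hsd17b11 higher by 0.51 (adjusted p = 0.0338), a comparison in which 13.9% of all genes were called. None of the 8 was called for hormone in control, where 13.7% of genes were called, and Hsd17b11 was 0.41 there (adjusted p = 0.145).

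With all 16 libraries and the mean stromal level as a covariate, the hormone difference of Hsd17b11 was 0.79 in control (adjusted p = 0.00189, limma, 25% of genes called) and 0.67 in cKO (adjusted p = 0.00816, 17.6% called). Srd5a1 was then 0.72 higher in cKO under E2/MPA (adjusted p = 0.0163, 2.81% called). Hsd11b1 had a hormone difference of 0.87 in both genotypes (adjusted p = 0.0515 and 0.0668), against 0.55 and 0.45 without the covariate, and a genotype difference of -0.73 under both treatments (adjusted p = 0.401 and 0.21). In the main fit 1 of the 12 stromal markers itself rose with E2/MPA in control (8.9% of all genes called) and 0 in cKO (4.19%). The covariate may therefore hold part of the hormone difference, which was not tested. Leaving out the library richest in stroma from each group called 1 gene, Hsd17b2 for hormone in control (0.44, adjusted p = 0.044, 13.4% of genes called). Macrophage markers were high in M4 and M12, and smooth muscle markers summed to at least 789 in M4, M8, M12 and M16 against 310 or less elsewhere. The part of these other cells in the members' levels was not tested beyond these fits.

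**Figure D3:**
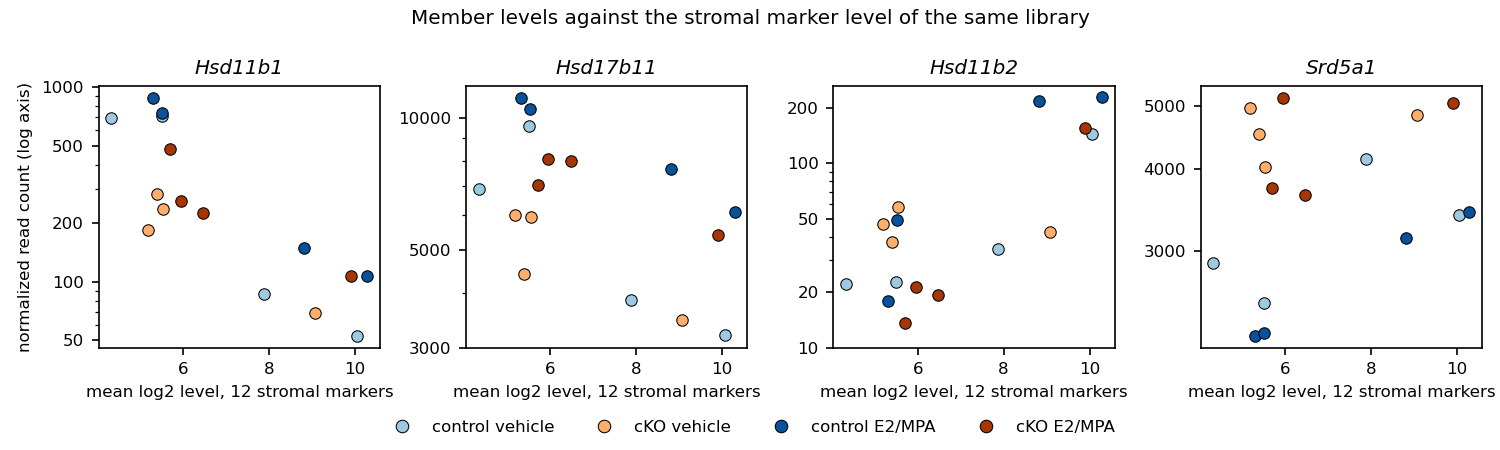
Normalized read count (vertical log axis) of Hsd11b1, Hsd17b11, Hsd11b2 and Srd5a1 against the mean log2 level of 12 stromal markers in the same library (horizontal axis), 1 point per library coloured by group. Hsd11b1 is lower in the 6 libraries above 7 than in each of the 10 others, and Hsd11b2 exceeds 100 only among those 6. Srd5a1 is higher in each cKO than in each control library among the 10, and likewise among the 6. The share of all genes that separate so was not counted.

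Libraries whose numbers differ by 8 (M1 and M9 to M8 and M16) deviated together from their group means, with correlations over all tested genes of 0.386 to 0.746. The labels give no such pairing, so it is a description. Along these pairs Hsd17b11 was higher under E2/MPA in 8 of 8, by 1.16 to 1.99 times, and Hsd17b4 in 8 of 8, by 1.08 to 1.25 times. The share of all genes that are higher in 8 of 8 was not counted. Hsd11b1 was higher in 7 of 8 (0.955 to 2.02 times), although its level differed far more between pairs than within them. Hsd17b2 was higher in all 4 control pairs and in 2 of 4 cKO pairs, and Hsd17b10 was higher in 2 of 8. With these pairs as a random block, limma called 3 members for hormone in control, where 27.1% of all genes were called. They were Hsd17b2 (0.35, adjusted p = 0.0374), Hsd17b4 (0.19, adjusted p = 0.0138) and Hsd17b11 (0.69, adjusted p = 0.0154). In cKO it called 0 of 8, against 18.8% of all genes, with Hsd17b11 at 0.54 (adjusted p = 0.0616), Hsd17b10 at -0.20 (adjusted p = 0.0684) and Hsd17b4 at 0.14 (adjusted p = 0.0838).

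**Figure D4:**
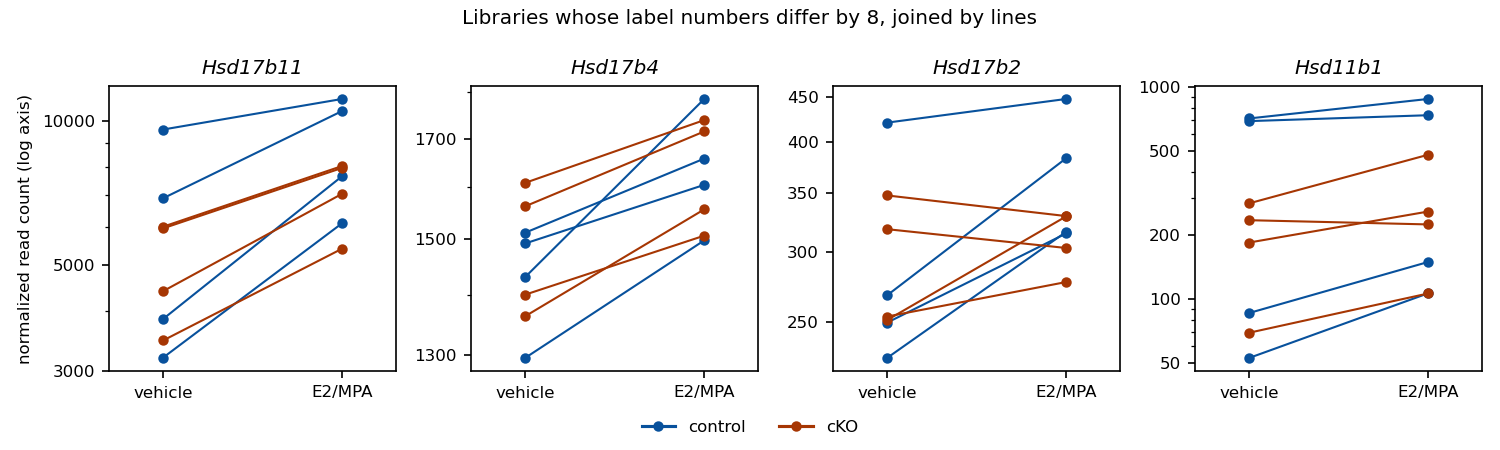
Normalized read count (vertical log axis) of Hsd17b11, Hsd17b4, Hsd17b2 and Hsd11b1 under vehicle and E2/MPA, with lines joining libraries whose label numbers differ by 8. All 8 lines rise for Hsd17b11 and Hsd17b4, and 7 of 8 rise for Hsd11b1. The share of all genes with 8 rising lines was not counted.

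Other genes of steroid metabolism are read against the 8.9% and 4.19% of all tested genes called for hormone in control and cKO. Lists this short can give 0 calls at these shares. Of 6 other tested genes of the 17-beta-hydroxysteroid dehydrogenase group none passed in either hormone comparison. Hsd17b12, an enzyme of fatty acid elongation, was -0.12 in control and -0.060 in cKO, and Hsd17b7, an enzyme of cholesterol synthesis, was -0.14 and 0.075. None of 4 tested aldo-keto reductases passed, although Akr1c13 was -0.57 in control (adjusted p = 0.117, limma) and -0.52 in cKO (adjusted p = 0.205). Akr1c18, the enzyme that inactivates progesterone in mice, was abundant and variable, at 5113 ± 3046 and 4876 ± 1224 in control and 5865 ± 3039 and 6795 ± 3245 in cKO. Of the genes that make steroids from cholesterol only 3 of 13 were tested, and none passed. The medians of these lists were 0.030, -0.25 and -0.26 in control and 0.074, -0.024 and 0.20 in cKO, beside -0.00077 and -0.0039 for all genes.

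Sult1a1, a phenol sulfotransferase that can sulfate estrogens, was the exception among 7 tested genes of steroid sulfation. Control libraries read 10.8, 9.03, 11.5 and 8.00 under vehicle against 85.8, 110.0, 95.1 and 81.4 under E2/MPA. Its cKO levels were 3.37, 3.36, 7.91 and 2.51 under vehicle against 69.0, 112, 37.6 and 55.9 under E2/MPA. The vehicle values lay near or below 10, the value that the filter asked of 4 libraries. Sult1a1 passed the filter only through its E2/MPA libraries, where it was high, so its fold is uncertain. It rose with E2/MPA in both genotypes with no overlap (12.1% of all tested genes in control and 13.8% in cKO), by 3.12 (SE 0.33, adjusted p = 5.38e-05, limma) in control and 3.71 (SE 0.33, adjusted p = 2.55e-05) in cKO, and under all 34 alternatives. The other 6 genes did not pass, Papss1 and Slc35b2, which make and carry the sulfate donor, being at 0.19 and 0.19 in control.

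A general list of NADPH and electron supply held 10 tested genes, not chosen as carriers that the members use. Of these, 2 rose in control and 1 in cKO, where 8.9% and 4.19% of all tested genes were called in either direction. The called genes were those of cytochrome b5 and its reductase. Whether they serve the members was not tested, so the electron supply of the members cannot be read from them. Cyb5r3, the reductase of cytochrome b5, rose from 3587 ± 442 to 5635 ± 812 in control (log2 0.65, adjusted p = 0.00177, limma) and from 3325 ± 254 to 4397 ± 227 in cKO (0.40, adjusted p = 0.0443). The control call held in all 34 alternatives. The cKO call was lost in 17 of them, among them without M3, M5, M7, M8, M11, M13, M14, M15 or M16 (adjusted p up to 0.124). Cyb5a, cytochrome b5 itself, rose in control (0.48, adjusted p = 0.00842) and was 0.35 in cKO (adjusted p = 0.0709). The Cyb5a call was lost in 1 alternative, the fit to the compared groups alone (adjusted p = 0.0679).

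The partners of the members in other pathways showed scattered changes, to be read against the same 8.9% and 4.19% of all genes. In isoleucine breakdown, the pathway of Hsd17b10, 1 of 4 genes rose in each genotype. That gene was Acadsb, the dehydrogenase of short branched chains, with 0.67 in control (adjusted p = 0.015, limma) and 0.71 in cKO (adjusted p = 0.0178). The control call was lost without M1, M10 or M11 (adjusted p up to 0.0586) and in the fit to the compared groups alone (0.062), and without M5, M14 or M15 the cKO call (up to 0.0627). None of 3 partners in mitochondrial RNase P passed, Trmt10c being 0.16 in control and -0.16 in cKO.

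In peroxisomal fatty acid oxidation, the pathway of Hsd17b4, 2 of 11 genes rose in control (8.9% of all genes called) and 0 in cKO (4.19%). Ehhadh, the other bifunctional enzyme, rose from 42.9 ± 15.0 to 114 ± 55.2 (log2 1.33, adjusted p = 0.0252, limma) and was 0.73 in cKO (adjusted p = 0.271). The Ehhadh call was lost without M1, M10 or M11 (adjusted p up to 0.0935) and in the fit to the compared groups alone. The interaction of hormone and genotype gave -0.60 for Ehhadh (adjusted p = 1).

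Among 9 lipid droplet genes, the setting of Hsd17b11, 1 rose and 1 fell in control (8.9% of all genes called) and none passed in cKO (4.19%). Abhd5, the activator of triglyceride lipase, rose by 0.44 (adjusted p = 0.0228, limma), and Acsl3, an acyl-CoA synthetase of nascent droplets, fell from 6761 ± 2170.5 to 3441 ± 786 (log2 -0.94, adjusted p = 0.0316). The Abhd5 call was lost without M1, M2, M10 or M11 (adjusted p up to 0.0775), and the Acsl3 call (up to 0.104) without M1, M4, M9, M10 or M11. Both were also lost in the fit to the compared groups alone, with 0.115 for Abhd5. In cKO these genes were 0.17 and -0.75. Of 9 dolichol genes, the setting of Srd5a3, 0 passed in control and 1 in cKO. Nus1, a subunit of the polyprenol-making transferase, rose by 0.45 in cKO (adjusted p = 0.0173) and was 0.29 in control (adjusted p = 0.0769). Without M5, M14 or M15 the Nus1 call was lost (up to 0.0647).

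Of 5 tested steroid receptors, the proteins whose ligands the members convert, 2 fell in control (8.9% of all tested genes called) and 1 in cKO (4.19%). Pgr, the progesterone receptor, fell from 5134 ± 1296 to 1885 ± 424 in control (log2 -1.44, adjusted p = 0.00038, limma) and from 3217 ± 277 to 1611 ± 83.6 in cKO (-0.99, adjusted p = 0.0085). Nr3c2, the mineralocorticoid receptor that Hsd11b2 is known to shield, fell in control from 57.5 ± 20.2 to 14.8 ± 2.61 (-1.84, adjusted p = 0.000605). In cKO it was 75.1 ± 21.2 and 37.1 ± 6.54 (-0.97, adjusted p = 0.0505), also with no overlap, which 13.8% of all genes showed there. These 3 calls held in all 34 alternatives.

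The genes most like each member over the 16 libraries, by Pearson's r of log2(value + 1), are given as a description, since all libraries share the stromal and pairwise structure above. For Hsd11b1 they were Pgrmc2 (0.957), Tgfb2 (0.956) and Man2b2 (0.949), and for Hsd17b11 they were Ctsb (0.978), Entpd5 (0.972) and Hdac10 (0.969). For Srd5a1 they were Tyk2 (0.937), Btg1 (0.929) and Dnaja2 (0.928), and for Hsd17b10 Reep6 (0.930), C1qbp (0.895) and Sars (0.891). Likeness was weaker for Hsd17b4 (Mrfap1, 0.895, Wdr6, 0.887, and Asb8, 0.869), Hsd11b2 (Hspa12b, 0.886, Layn, 0.878, and Pid1, 0.864), Hsd17b2 (Kcnab2, 0.885, Slc37a2, 0.804, and Ulbp1, 0.801) and Srd5a3 (Trim40, 0.851, Vcpkmt, 0.846, and Sh2d5, 0.845).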

How the data were processed

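Total RNA of 16 libraries was sequenced from TruSeq libraries, per the labels' protocols. The authors deposited 1 table of 23306 genes whose unit is a signal, that is, normalized counts (reads per gene over a library size factor). HISAT2, featureCounts, DESeq2 and the build GRCm39 are named in the submitters' processing notes. Whether strand was used in counting is not stated in the labels. Every value gave whole reads within 0.01 read when multiplied by its factor (100% in every library). A gene was tested if 4 or more libraries reached a value of 10, and the resulting 16509 genes were fitted on log2(value + 1) in 1 limma model (version 3.58.1, R 4.3.3) with 4 group means and a mean-variance trend. Tests are two-sided with Benjamini-Hochberg adjustment over all tested genes and a threshold of 0.05, and adjusted p-values come from limma unless edgeR (4.0.16) or DESeq2 (1.42.0) is named. The fit was tested on simulated counts drawn independently for each library, without the pairwise structure or the stromal differences of these data.

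Symbols and exon lengths came from GENCODE M21, an annotation of another build. Named are the 8 genes, up to 4 called genes per list (or the 2 most abundant where fewer than 2 passed) and the 3 genes most like each member. Marker genes are given as list sums only, and 1 gene that this rule names is not reported here. The members, lists and alternatives were chosen with earlier results of these data known. No pair of libraries in a group agreed within counting noise (M10 and M11 came closest, with a chi-square of 7.70 per degree of freedom). Alternatives covered the pseudocount, filter, scaling, test, libraries fitted, stromal level, pairs 8 numbers apart and each library left out.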

Additional observations from a re-analysis of the deposited data

Results flagged for a closer look

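A library far from the 3 others of its group was found in 2 of the 32 combinations of gene and group, both of Hsd11b2. Chance flags about 1 in 20, so this count is near the rate of chance. In control vehicle organoids M4 stood at 144.8 (next 34.2), and in cKO E2/MPA organoids M16 stood at 154.8 (next 21.4). Both libraries have the highest stromal marker level of their group (mean log2 10.06 and 9.90).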

How the results depend on the processing

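All 8 genes were compared under 34 alternative settings, 16 of which leave out 1 library. The count of members called, 0 in each main comparison, changed as follows, and the cause was not tested. The share of all tested genes called in each setting is in brackets. For hormone in control the count was 3 with the pairs 8 numbers apart as a random block (27.1%). It was 1 each with the stromal covariate (25%) and without the library richest in stroma of each group (13.4%). It was also 1 without M2 (10.7%) or M4 (7.08%), and 0 to 1 over the single libraries left out. For hormone in cKO the count was 1 with the stromal covariate (17.6%) and 2 without the 6 libraries above a stromal mean of 7 (13.9%). For genotype it was 2 under vehicle (3.59%) and 2 under E2/MPA (8.44%) without those 6 libraries. Under E2/MPA it was 1 each with DESeq2 (1.12%), library weights (3.62%) and the stromal covariate (2.81%). The Hsd11b2 hormone difference in cKO, -0.55, was 0.17 with edgeR with and without the filter and 0.17 with DESeq2, and its vehicle genotype difference, 0.19, was -0.28, -0.26 and -0.27 in these fits. The vehicle genotype difference of Hsd17b10, 0.022, was -0.074 with library weights, -0.013 with the stromal covariate, -0.053 without the library richest in stroma of each group and -0.19 without the 6 libraries. Without those 6, Hsd17b4 was -0.0077 for genotype under vehicle and Hsd17b2 was 0.022 under E2/MPA. Hsd17b4 was 0.0002 under E2/MPA with TMM scaling.

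With 1 library left out, signs turned within these ranges. For hormone in control they were -0.13 to 1.12 for Hsd11b1, -0.16 to 0.029 for Hsd17b10 and -0.021 to 0.21 for Srd5a3, and in cKO -0.16 to 0.0081 for Srd5a1 and -0.01 to 0.13 for Srd5a3. For genotype under vehicle they were -1.02 to 0.22 for Hsd11b1, -0.084 to 0.80 for Hsd11b2, -0.069 to 0.23 for Hsd17b2, -0.071 to 0.11 for Hsd17b10 and -0.39 to 0.14 for Hsd17b11. Under E2/MPA they were -0.97 to 0.037 for Hsd11b1 and -0.048 to 0.037 for Hsd17b4. The labels give the groups no shared numbers, so the random block above rests on a pairing seen in the data and not on the design. Each member had at least 12 reads in each library, and the part of counting noise in the width of the intervals was not tested.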

Other observations

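Among the 8 genes, Hsd11b1 and Hsd17b11 were the most alike over the 16 libraries (Pearson's r of log2 values 0.823). Srd5a1 ran against both (-0.629 and -0.617) and with Srd5a3 (0.622), and Hsd11b2 ran against Hsd11b1 (-0.636). These are descriptions over libraries that share the stromal level and the pairwise structure, with no test.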
